A study of Mus musculus with 18 samples.

Results

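Mitochondrial and peroxisomal fatty acid oxidation was followed through 35 member genes, chosen by gene name for their known place in the pathway. The choice was made with earlier results of these data known, so member shares set beside those of all genes are a description. Of the 35 members, 33 had read counts in the deposited tables, among 15194 genes with counts in all. The carnitine palmitoyltransferase Cpt1b and the peroxisomal dienoyl-CoA reductase Decr2 had no row in the tables used and were not analysed here. The samples were 18 RNA libraries, 3 in each of 6 groups, of the clonal mouse fibroblast line 3T3-L1, which turns into adipocytes in culture. The groups were cells labelled differentiated and MLKL-/- (J7_MLKL), RIPK3-/- (J7_RIPK3) or control (J7_CTL), and cells of the same 3 genotypes labelled untreated (J0_MLKL, J0_RIPK3 and J0_CTL). The step between J0 and J7 is called differentiation here, and the differentiation protocol is not given in the sources used here. In necroptosis, a lytic form of cell death, RIPK3 phosphorylates the pseudokinase MLKL, which then ruptures the cell membrane. The sources used here do not say how the knockouts were made, whether each line is 1 clone, or whether the libraries of a group came from separate cultures, so that the spread behind each p-value is that between these libraries and may be technical. Groups follow the sample titles, because the genotype field of the 6 differentiated knockout samples names the other knockout.

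Fatty acids are activated to acyl-CoA, carried into mitochondria as acylcarnitines and shortened in repeated rounds of dehydrogenation, hydration, a second oxidation and thiolysis, with electrons passed to the respiratory chain through the electron transfer flavoprotein. Very long, branched and dicarboxylic chains are first shortened in peroxisomes by a parallel set of enzymes. In white adipocytes the pathway runs beside triglyceride storage, and many of its genes are known targets of the PPAR family of nuclear receptors, which bind DNA at repeats of the core site AGGTCA.

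Library depth ran from 20.2 to 36.9 M reads. Genes enter the deposited tables only where the authors called them, and genes with counts covered 53.5 to 54.5% of a library's reads in J7_MLKL, 29.3 to 30.4% in J0_MLKL and 90.0 to 98.4% in the RIPK3 and CTL groups. Members with counts numbered 26 in J7_MLKL, 33 in J7_RIPK3, 33 in J7_CTL, 12 in J0_MLKL, 32 in J0_RIPK3 and 33 in J0_CTL. A member reached an MLKL comparison only by being listed for an MLKL group, so that it had to differ somewhere, and counts of calls in those comparisons are a description. Transcript of the targeted genes was still counted in both knockouts. Mlkl stood at 6.02, 7.10 and 6.52 FPKM in J7_MLKL and 14.0, 11.5 and 12.3 FPKM in J7_RIPK3, against 11.01, 11.9 and 11.3 FPKM in J7_CTL. Ripk3 stood at 3.37, 3.48 and 5.23 FPKM in J7_MLKL and 4.44, 4.73 and 5.09 FPKM in J7_RIPK3, against 7.63, 8.36 and 7.92 FPKM in J7_CTL, so that it was below J7_CTL in both knockouts. At J0, Mlkl stood at 3.15, 4.22 and 3.12 FPKM in J0_MLKL and 6.79, 6.30 and 7.69 FPKM in J0_RIPK3, against 7.91, 8.58 and 8.10 FPKM in J0_CTL. Ripk3 stood at 2.502, 4.12 and 3.13 FPKM in J0_MLKL and 6.41, 7.55 and 6.91 FPKM in J0_RIPK3, against 8.54, 7.32 and 7.99 FPKM in J0_CTL, with overlap between J0_RIPK3 and J0_CTL. These transcripts do not settle the disagreement between titles and genotype field, and each direction given for a J7 knockout rests on the titles. Library 3 of J7_MLKL stood apart from the other two of its group, with a standard deviation of log2 deviations from the group mean of 0.482 against 0.253 and 0.264, and so did library 2 of J0_MLKL, with 0.251 against 0.146 and 0.157.

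The 250 bases upstream of the start site are shown for members that moved together or apart in the comparisons below, from RefSeq on GRCm38.p6, the patch release of the mm10 build used in the deposited tables. Capitals mark the core site AGGTCA or its reverse complement. Acadm and Cpt1a both hold 1 core site and changed in opposite directions with differentiation in the CTL and RIPK3-/- lines. Hadha and Hadhb encode the 2 subunits of the mitochondrial trifunctional protein and lie head to head, and the stretch upstream of Hadhb overlaps the one upstream of Hadha. Acot1 and Acot2 are neighbouring paralogs that changed in opposite directions with differentiation in the CTL and RIPK3-/- lines and both fell in the MLKL-/- line.
Acadm, chr3:153944644-153944893, minus strand: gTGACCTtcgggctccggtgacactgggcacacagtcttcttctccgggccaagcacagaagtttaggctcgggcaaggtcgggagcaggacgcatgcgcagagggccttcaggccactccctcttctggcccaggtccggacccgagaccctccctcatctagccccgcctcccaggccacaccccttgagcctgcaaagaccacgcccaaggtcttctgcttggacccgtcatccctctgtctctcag
Cpt1a, chr19:3323051-3323300, plus strand: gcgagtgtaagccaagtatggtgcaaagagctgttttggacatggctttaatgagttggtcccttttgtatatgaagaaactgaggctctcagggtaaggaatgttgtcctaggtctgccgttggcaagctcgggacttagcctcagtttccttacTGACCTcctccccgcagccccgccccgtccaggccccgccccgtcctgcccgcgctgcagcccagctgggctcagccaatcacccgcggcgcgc
Hadhb, chr5:30155003-30155252, plus strand: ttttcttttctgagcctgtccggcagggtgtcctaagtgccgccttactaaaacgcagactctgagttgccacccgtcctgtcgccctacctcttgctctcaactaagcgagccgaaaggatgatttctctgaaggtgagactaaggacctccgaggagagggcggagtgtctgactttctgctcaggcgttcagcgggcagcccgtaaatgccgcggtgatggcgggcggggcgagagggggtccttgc
Acot1, chr12:84009252-84009501, plus strand: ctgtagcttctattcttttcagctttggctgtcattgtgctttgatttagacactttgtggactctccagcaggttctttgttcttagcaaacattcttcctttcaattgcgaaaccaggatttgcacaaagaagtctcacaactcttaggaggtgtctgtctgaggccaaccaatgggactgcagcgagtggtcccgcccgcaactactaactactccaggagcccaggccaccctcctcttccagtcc
Acot2, chr12:83987611-83987860, plus strand: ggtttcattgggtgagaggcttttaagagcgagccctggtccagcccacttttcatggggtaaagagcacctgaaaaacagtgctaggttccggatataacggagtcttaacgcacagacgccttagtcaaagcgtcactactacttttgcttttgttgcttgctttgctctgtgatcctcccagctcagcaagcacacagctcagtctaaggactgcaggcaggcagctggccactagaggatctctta
RefSeq upstream stretches were matched by symbol for 28 of the 35 members. AGGTCA, searched on both strands in the 250 bases, was present for 5 of these (Acadm, Acadvl, Cpt1a, Echs1 and Scp2) and in 14% of all 32851 upstream stretches. The match began 249 bases upstream of the start in Acadm and 94 bases upstream in Cpt1a. The direct repeat DR1, which is the core site repeated with 1 base of any kind between and so overlaps the matches above, was searched on both strands and was present in 0.0335% of all upstream stretches and in 0 of the members' stretches. The start sites of Hadha and Hadhb lie 273 bases apart on opposite strands of chromosome 5. Those of Acot1 and Acot2 lie 21641 bases apart on the plus strand of chromosome 12. The upstream stretches of this pair were identical at 46.7% of aligned positions, and those of the unrelated pair Acadm and Cpt1a at 48.7%.

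**Figure D1:**
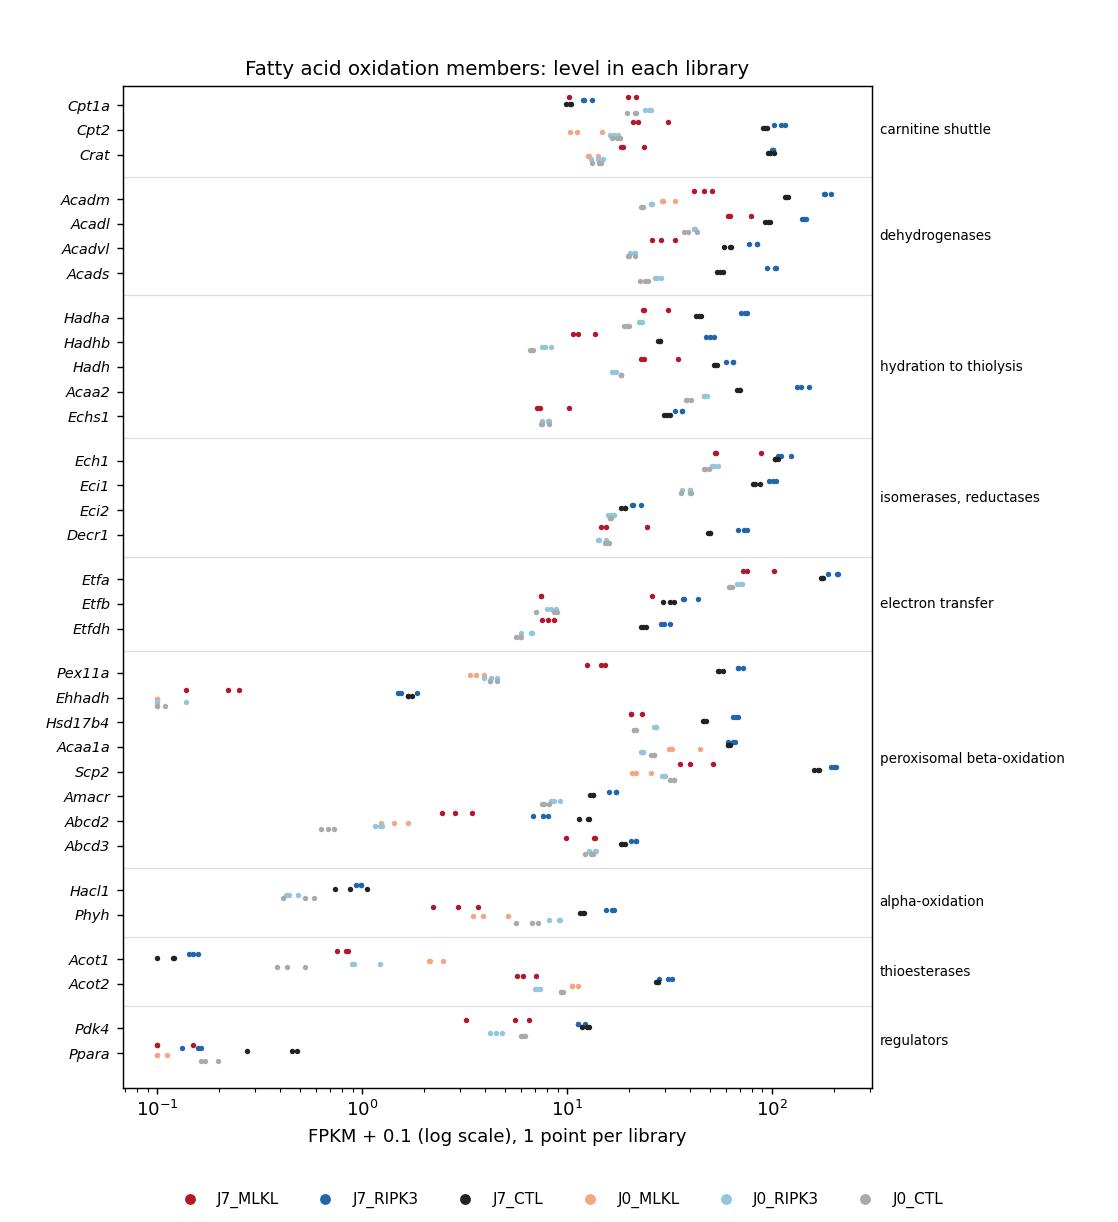
Level of each of the 33 members with counts, as FPKM + 0.1 on a log axis, with 1 point per library and 1 colour per group. Most members lie furthest right in J7_RIPK3, then J7_CTL, with J7_MLKL nearer to the J0 groups, and members without counts in an MLKL group have no point there.

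In control cells, differentiation raised 31 of the 33 members and lowered 2, Cpt1a and Acot1, and the J7_CTL and J0_CTL libraries did not overlap for any of them. The median log2 fold change of the members was 1.44, against 0.03 over the 12055 genes tested, of which 48.2% were called higher, 47.6% lower, and 95.7% had groups that did not overlap. A call is an adjusted p under 0.05 in edgeR's quasi-likelihood test with Benjamini-Hochberg adjustment over all genes tested, and adjusted p-values below come from it. Summed over the 32 members with counts in all CTL and RIPK3 libraries, FPKM was 1696, 1641 and 1679 in J7_CTL against 586, 566 and 567 in J0_CTL. Every gene with counts is listed because it differed in some comparison, so nothing is read from the fact of a call. With an absolute log2 fold change over 1 also required, 24 members were higher and 2 lower, against 19.8% and 23.4% of all genes tested. The 12 adipocyte markers summed to 7499 to 7883 FPKM in J7_CTL against 32.6 to 33.5 FPKM in J0_CTL, and the 9 fibroblast or preadipocyte markers to 1207 to 1211 FPKM in J7_CTL against 3271 to 3489 FPKM in J0_CTL. In bulk RNA a larger share of adipocytes and more RNA per adipocyte cannot be told apart.

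Among the enzymes of the carnitine shuttle, which carries acyl groups into mitochondria, Cpt1a and Cpt2 changed in opposite directions. Of the members for the outer step only Cpt1a had counts, and Cpt1b had none, so the outer step as a whole is not covered. Cpt1a, which makes long-chain acylcarnitines at the outer membrane and is the regulated entry step, stood at 9.75, 10.3 and 10.4 FPKM in J7_CTL against 21.4, 21.5 and 19.4 FPKM in J0_CTL. All J7_CTL libraries lay below all J0_CTL libraries, at a fold of 0.486 and a log2 fold change of -1.08 (SE 0.045, adjusted p = 5.17e-17). Cpt2, which returns acylcarnitines to acyl-CoA at the inner membrane, stood at 92.7, 90.3 and 94.2 FPKM in J7_CTL against 17.5, 16.5 and 17.98 FPKM in J0_CTL. It rose 5.34-fold, with a log2 fold change of 2.37 (SE 0.036, adjusted p = 5.07e-26). Within each library the ratio of Cpt1a to Cpt2 FPKM was therefore 0.11 ± 0.00446 in J7_CTL and 1.20 ± 0.112 in J0_CTL (SD, n = 3 each). Crat, which exchanges acetyl groups between CoA and carnitine, reached 102, 96.2 and 97.5 FPKM in J7_CTL against 14.6, 13.2 and 14.3 FPKM in J0_CTL, a 7.01-fold rise.

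The 4 acyl-CoA dehydrogenases, which take the first step for chains of different length, all rose, with log2 fold changes of 1.18 to 2.30. Acadm, the medium-chain enzyme, stood at 120.2, 116 and 117 FPKM in J7_CTL against 22.9, 23.3 and 23.3 FPKM in J0_CTL. This 5.09-fold rise (log2 fold change 2.30, SE 0.033, adjusted p = 1.42e-26) was the largest of the 4. The very-long-chain enzyme Acadvl rose 3.00-fold, the long-chain enzyme Acadl 2.39-fold and the short-chain enzyme Acads 2.33-fold.

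All 5 members of the hydration, second oxidation and thiolysis steps rose, with a median log2 fold change of 1.49. Hadhb, the thiolase subunit of the trifunctional protein, stood at 28.4, 27.8 and 28.5 FPKM in J7_CTL against 6.77, 6.57 and 6.51 FPKM in J0_CTL, a 4.26-fold rise. Its partner Hadha, which carries the hydratase and dehydrogenase activities, stood at 44.1, 42.7 and 45.03 FPKM in J7_CTL against 19.9, 18.9 and 19.6 FPKM in J0_CTL, a 2.26-fold rise. The ratio of Hadha to Hadhb FPKM was 1.56 ± 0.0237 in J7_CTL and 2.94 ± 0.0677 in J0_CTL (SD, n = 3 each), so it was lower after differentiation. The short-chain hydratase Echs1 rose 3.99-fold and the short-chain hydroxyacyl-CoA dehydrogenase Hadh 2.90-fold. Acaa2, the mitochondrial thiolase, rose 1.76-fold, the smallest change of the group.

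The accessory enzymes for unsaturated chains rose by log2 fold changes of 0.17 to 1.62, with the dienoyl-CoA reductase Decr1 highest at 3.17-fold and the isomerase Eci2 lowest at 1.16-fold. Transcripts for the electron carriers all rose. Etfa, the alpha subunit of the electron transfer flavoprotein, had the highest FPKM of all members in J7_CTL, at 176, 173 and 178 FPKM against 62.7, 63.6 and 61.7 FPKM in J0_CTL. Etfb, its beta subunit, rose 3.81-fold, and Etfdh, which hands the electrons to ubiquinone, rose 4.08-fold.

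All 8 peroxisomal transport and beta-oxidation members rose, and the 3 largest rises of the whole set were among them. Ehhadh, the bifunctional hydratase and dehydrogenase of the classical peroxisomal pathway, had 366 reads in J7_CTL and 1 read in J0_CTL. Its level was 1.66, 1.57 and 1.58 FPKM in J7_CTL against 0.00952, 0 and 0 FPKM in J0_CTL, a read ratio of 429.6 with an exact 95% interval of 76.6 to 17010 that covers counting error only. Abcd2, which imports very-long-chain acyl-CoA, stood at 12.7, 11.3 and 12.6 FPKM in J7_CTL against 0.628, 0.531 and 0.584 FPKM in J0_CTL. This 20.9-fold rise had a log2 fold change of 4.34 (SE 0.076, adjusted p = 7.23e-25). Pex11a, which promotes division of peroxisomes, reached 58.0, 54.5 and 55.4 FPKM in J7_CTL against 4.12, 4.11 and 4.48 FPKM in J0_CTL. It rose 13.3-fold, with a log2 fold change of 3.68 (SE 0.045, adjusted p = 6.65e-28).

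The other peroxisomal members changed less. Scp2, which yields a thiolase and a sterol carrier protein, stood at 168, 161 and 170 FPKM in J7_CTL against 33.3, 31.7 and 33.3 FPKM in J0_CTL, a 5.08-fold rise. The thiolase Acaa1a rose 2.34-fold, the D-bifunctional protein gene Hsd17b4 2.19-fold, the racemase Amacr 1.70-fold and the transporter Abcd3 1.44-fold. In the alpha-oxidation of branched chains, the hydroxylase Phyh rose 1.82-fold and the lyase Hacl1 1.91-fold, the second from 297 reads in J7_CTL against 183 reads in J0_CTL.

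The acyl-CoA thioesterases Acot1 and Acot2, which release free fatty acids from acyl-CoA in the cytosol and in mitochondria, changed in opposite directions. Acot1 stood at 0.0212, 0 and 0.0190 FPKM in J7_CTL against 0.286, 0.429 and 0.330 FPKM in J0_CTL, or 4 reads against 120 reads. The log2 fold change was -4.61 (SE 0.511, adjusted p = 9.56e-09). Acot2 stood at 27.9, 27.8 and 27.3 FPKM in J7_CTL against 9.27, 9.51 and 9.26 FPKM in J0_CTL, a 2.96-fold rise. The 2 genes are near-identical copies, so reads may be split between them and the much lower Acot1 values are uncertain. Of the regulators, Pdk4, the kinase that shuts off pyruvate dehydrogenase, stood at 11.8, 12.5 and 12.7 FPKM in J7_CTL against 5.90, 5.95 and 6.16 FPKM in J0_CTL, a 2.06-fold rise. Ppara, the PPAR best known for driving this pathway in liver, rose 3.78-fold but stayed low, at 0.357, 0.381 and 0.175 FPKM in J7_CTL against 0.0974, 0.0715 and 0.0631 FPKM in J0_CTL, or 87 reads against 27 reads.

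In J7_CTL the level per length fell in the order Etfa (176 FPKM), Scp2 (166 FPKM), Acadm (118 FPKM) and Ech1 (105 FPKM), none of which overlapped the next over its 3 libraries. The order between genes rests on the deposited gene lengths and would change with other lengths. Etfa, with a length of 1835 bases, had 7813, 7806 and 8766 reads. Echs1, with 8286 bases, had 6341, 6090 and 6797 reads but only 30.7 FPKM. At the low end stood Cpt1a (10.1 FPKM), Ehhadh (1.61 FPKM), Hacl1 (0.790 FPKM), Ppara (0.304 FPKM) and Acot1 (0.0134 FPKM). Of the 32 neighbouring pairs in the full order, 10 overlapped, among them Crat with Acadl and Acadl with Cpt2.

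**Figure D2:**
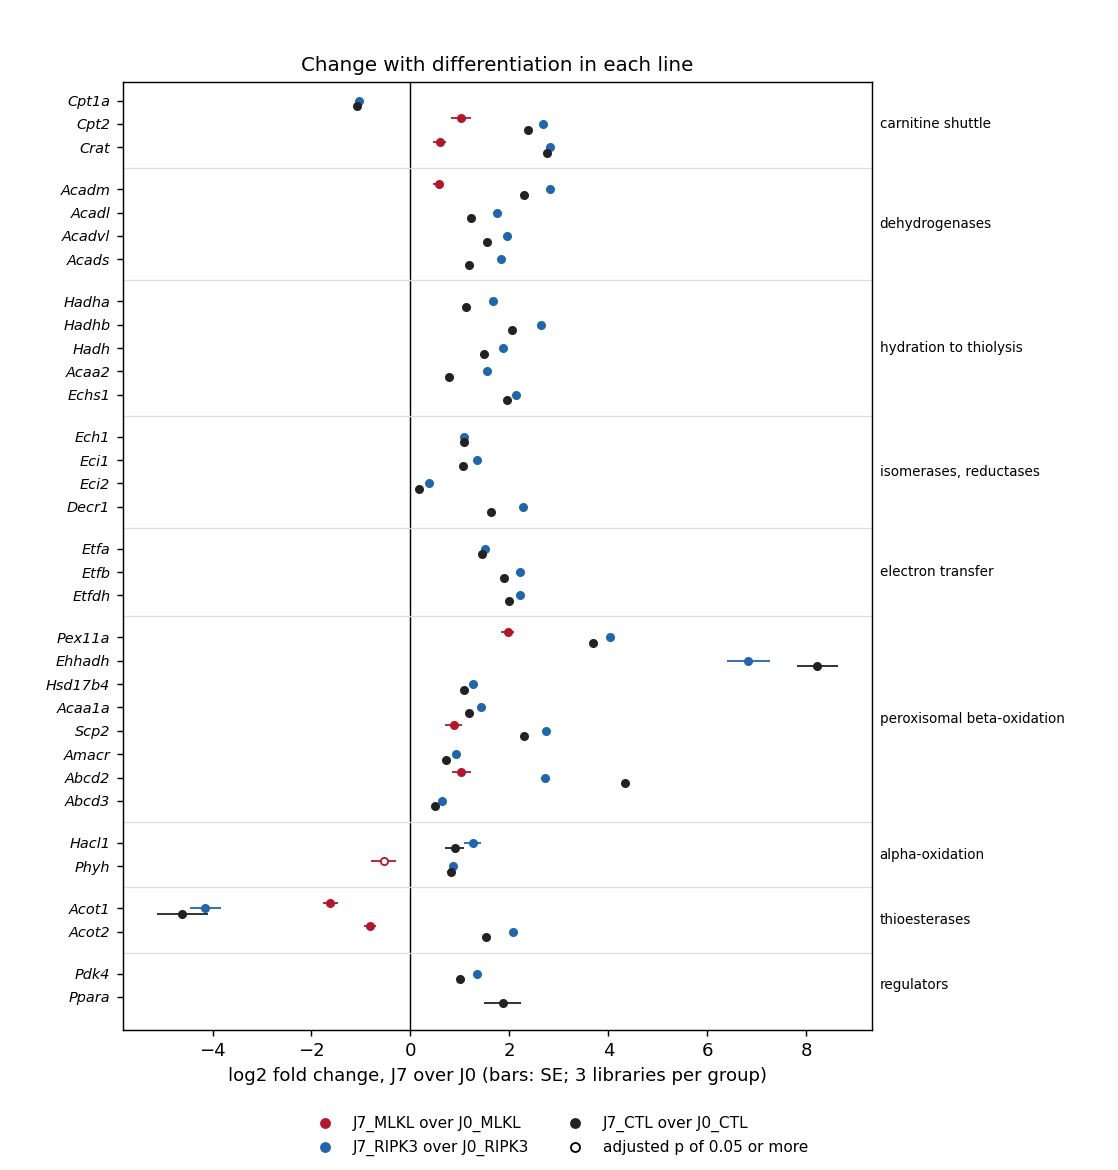
Log2 fold change of each member, J7 over J0, in the MLKL, RIPK3 and CTL lines (points), with bars for 1 SE and 3 libraries per group. Control and RIPK3 points lie to the right of 0 for all members except Cpt1a and Acot1, and the 9 MLKL points lie mostly closer to 0, with Acot1, Acot2 and Phyh to its left.

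In the RIPK3-/- line, differentiation raised 30 of the 32 members tested and lowered Cpt1a and Acot1, and no member had overlapping groups. The members' median log2 fold change was 1.79 against 0.04 over all 11798 genes tested, of which 49.3% were called higher, 48.5% lower and 97.2% had groups that did not overlap. Over an absolute log2 fold change of 1, 26 members were higher and 2 lower, against 22.6% and 24.8% of all genes tested. Pex11a stood at 72.2, 67.9 and 67.9 FPKM in J7_RIPK3 against 4.48, 3.82 and 4.18 FPKM in J0_RIPK3, a 16.6-fold rise. Acadm stood at 195, 183 and 179 FPKM in J7_RIPK3 against 26.0, 25.7 and 25.6 FPKM in J0_RIPK3, a 7.20-fold rise. In both genes every J7_RIPK3 library lay above every J0_RIPK3 library. Crat had 102, 100.5 and 101 FPKM in J7_RIPK3 against 14.8, 13.0 and 14.2 FPKM in J0_RIPK3, a 7.20-fold rise. Scp2 measured 199.9, 206 and 195 FPKM in J7_RIPK3 against 29.7, 30.0 and 29.0 FPKM in J0_RIPK3, a 6.77-fold rise. Abcd2 rose less steeply than in the CTL line, by a difference of -1.61 on the log2 scale. Abcd2 stood at 6.77, 8.02 and 7.58 FPKM in J7_RIPK3 against 1.06, 1.16 and 1.12 FPKM in J0_RIPK3, a 6.68-fold rise. Acot2 had 31.1, 32.3 and 28.2 FPKM in J7_RIPK3 against 7.33, 7.09 and 6.89 FPKM in J0_RIPK3, a 4.29-fold rise. Ehhadh, nearly without reads at J0, had 327 reads in J7_RIPK3 against 3 reads in J0_RIPK3, a read ratio of 131 with an exact 95% interval of 44.6 to 641. Cpt1a stood at 11.9, 13.2 and 12.1 FPKM in J7_RIPK3 against 23.9, 25.2 and 25.5 FPKM in J0_RIPK3 and fell to a fold of 0.495. Acot1 fell to 14 reads in J7_RIPK3, against 297 reads in J0_RIPK3, a log2 fold change of -4.15 (SE 0.314, adjusted p = 4.43e-11).

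In the MLKL-/- line, 11 members had counts at both stages and 9 passed the filter on low counts. Of these, 6 rose (Pex11a, Abcd2, Cpt2, Scp2, Crat and Acadm), both thioesterases fell and Phyh was not called. All of the 9 but Phyh were listed by the authors as differing in this same comparison, so only direction and size are read here. Of the 35 members, 26 were not tested. Ehhadh and Ppara did not pass the filter. Ehhadh had 3, 8 and 12 reads in J7_MLKL against 0, 0 and 0 in J0_MLKL, and Ppara 5, 0 and 0 against 1, 0 and 0. Without the filter 7 members were called higher and 2 lower. Of the 3075 genes tested, 35.8% were called higher, 30.9% lower and 72.2% had groups that did not overlap, as did 8 of the 9 members. The members' median log2 fold change was 0.59 against 0.03 over all genes tested. Of those past an absolute log2 fold change of 1, 3 were higher and 1 lower, against 22.8% and 15.4% of all genes tested. Pex11a stood at 12.4, 14.6 and 15.2 FPKM in J7_MLKL against 3.25, 3.83 and 3.51 FPKM in J0_MLKL, a 3.96-fold rise (log2 fold change 1.96, SE 0.133, adjusted p = 0.000144). Acadm stood at 41.5, 46.3 and 51.2 FPKM in J7_MLKL against 29.2, 33.5 and 28.9 FPKM in J0_MLKL, a 1.51-fold rise. For both genes all J7_MLKL libraries lay above all J0_MLKL libraries. Abcd2 measured 2.76, 3.34 and 2.35 FPKM in J7_MLKL against 1.57, 1.33 and 1.14 FPKM in J0_MLKL, a 2.08-fold rise. Cpt2 stood at 20.8, 22.2 and 31.2 FPKM in J7_MLKL against 11.1, 14.7 and 10.2 FPKM in J0_MLKL, a 2.06-fold rise. These groups did not overlap either, nor did those of the next pair. Scp2 had 35.5, 39.7 and 51.5 FPKM in J7_MLKL against 20.7, 25.6 and 21.6 FPKM in J0_MLKL, a 1.86-fold rise, and Crat rose 1.54-fold.

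Acot2 and, though not called, Phyh had the opposite sign to their change in the other lines. Acot2 stood at 7.002, 5.98 and 5.63 FPKM in J7_MLKL against 10.5, 11.2 and 10.5 FPKM in J0_MLKL, all J7_MLKL libraries lying below all J0_MLKL libraries, with a log2 fold change of -0.83 (SE 0.122, adjusted p = 0.00169). Acot2 rose in the other lines, by a log2 fold change of 2.08 in RIPK3-/- cells and 1.52 in CTL cells. Acot1 stood at 0.739, 0.658 and 0.753 FPKM in J7_MLKL against 2.06, 2.39 and 2.02 FPKM in J0_MLKL, and fell by 1.62 on the log2 scale (SE 0.155, adjusted p = 0.000421). Phyh had 2.12, 2.85 and 3.60 FPKM in J7_MLKL against 3.78, 5.08 and 3.39 FPKM in J0_MLKL, with overlapping groups and a log2 fold change of -0.54 (adjusted p = 0.101, and 0.0171 without J7_MLKL library 3).

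**Figure D3:**
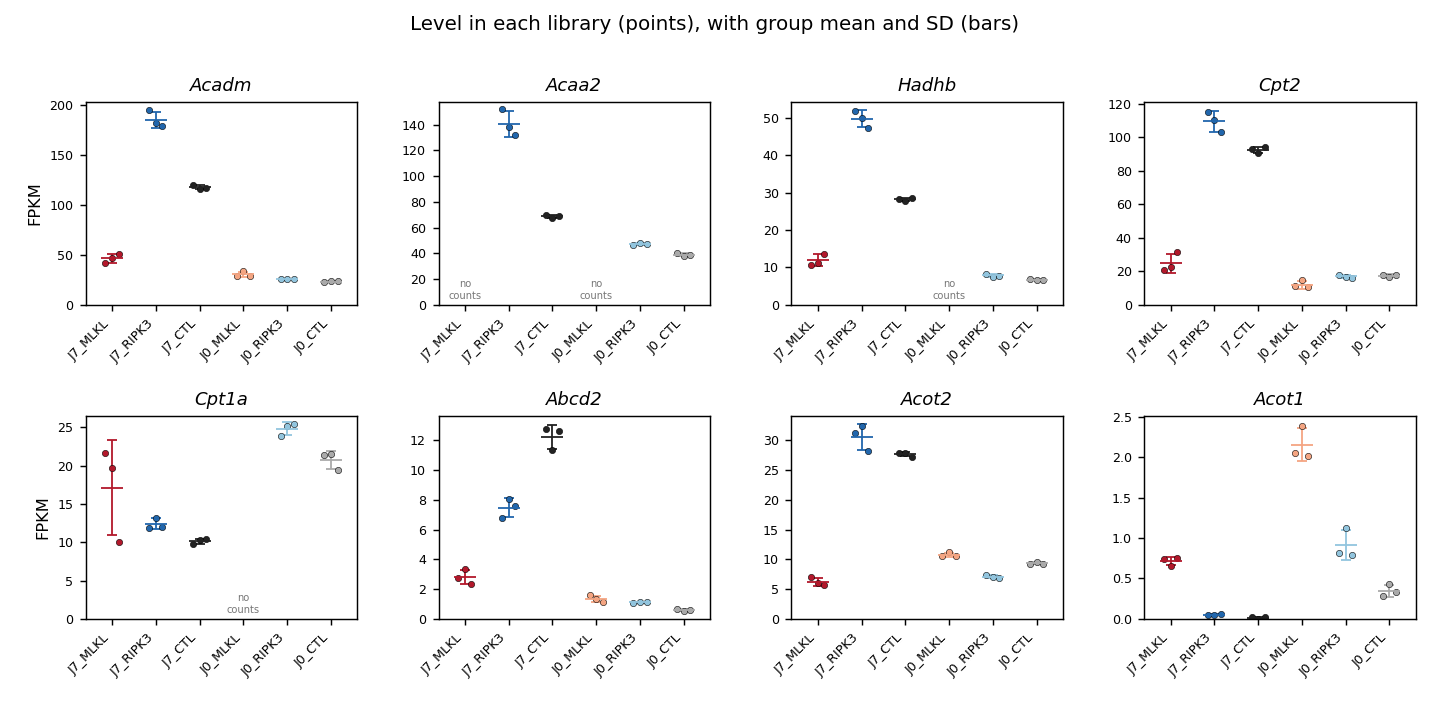
FPKM in each library (points) for 8 members in the 6 groups, with the group mean (dash) and SD (bar) of 3 libraries, on linear axes from 0. Acadm, Acaa2 and Hadhb are highest in J7_RIPK3, Abcd2 is highest in J7_CTL, Acot1 is highest in J0_MLKL, and Cpt1a is higher in J0_RIPK3 and J0_CTL than in J7_RIPK3 and J7_CTL.

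Differentiated RIPK3-/- cells had more transcript of most members than differentiated control cells. Of 32 members tested, 25 were higher in J7_RIPK3, 2 were lower (Ppara and Abcd2) and 5 were not called, against 29.6% called higher and 29.5% lower among the 11170 genes tested. The members' median log2 fold change was 0.28 against 0.00 over all genes tested. Groups did not overlap for 27 of the 32 members, against 62.5% of all genes tested. Only Acaa2 was higher and only Ppara lower by more than 1 on the log2 scale, against 3.42% and 3.01% of all genes tested. Summed FPKM over the 32 members with counts in all CTL and RIPK3 libraries was 2257, 2205 and 2086 in J7_RIPK3 against 1696, 1641 and 1679 in J7_CTL. The 12 adipocyte markers summed to 7866 to 8792 FPKM in J7_RIPK3 against 7499 to 7883 FPKM in J7_CTL, with 7 called higher and 1 lower, and the fibroblast or preadipocyte markers to 817 to 850.2 FPKM in J7_RIPK3 against 1207 to 1211 FPKM in J7_CTL. Their part in the result was not tested.

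The largest increases in J7_RIPK3 were in mitochondrial enzymes. Acaa2 stood at 152, 138 and 132 FPKM in J7_RIPK3 against 69.8, 67.1 and 69.2 FPKM in J7_CTL, a fold of 2.05 and a log2 fold change of 1.05 (SE 0.042, adjusted p = 5.29e-15). Acads stood at 103, 105 and 94.8 FPKM in J7_RIPK3 against 57.6, 55.5 and 53.8 FPKM in J7_CTL, a fold of 1.81. In both genes the lowest J7_RIPK3 library exceeded the highest J7_CTL library. The trifunctional subunits rose together: Hadhb stood at 52.0, 50.01 and 47.5 FPKM in J7_RIPK3 against 28.4, 27.8 and 28.5 FPKM in J7_CTL, a fold of 1.76. Hadha stood at 75.6, 73.6 and 70.7 FPKM in J7_RIPK3 against 44.1, 42.7 and 45.03 FPKM in J7_CTL, a fold of 1.66, and their ratio was 1.47 ± 0.0175 in J7_RIPK3 and 1.56 ± 0.0237 in J7_CTL (SD, n = 3 each). Both subunits were above J7_CTL in every J7_RIPK3 library. Acadm measured 195, 183 and 179 FPKM in J7_RIPK3 against 120.2, 116 and 117 FPKM in J7_CTL, a fold of 1.57. Acadl stood at 143, 146 and 140.2 FPKM in J7_RIPK3 against 95.9, 92.5 and 97.9 FPKM in J7_CTL, a fold of 1.497. Decr1 was higher 1.46-fold and Acadvl 1.34-fold.

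By role, all 4 acyl-CoA dehydrogenases (median log2 fold change 0.63) and all 5 members of hydration to thiolysis (median 0.75) were higher in J7_RIPK3, as were the 3 electron carriers. The carnitine shuttle moved less. Cpt1a had 11.9, 13.2 and 12.1 FPKM in J7_RIPK3 against 9.75, 10.3 and 10.4 FPKM in J7_CTL, a fold of 1.22. Cpt2 measured 115, 110.3 and 103 FPKM in J7_RIPK3 against 92.7, 90.3 and 94.2 FPKM in J7_CTL, a fold of 1.18. Neither overlapped between groups, while Crat, at 102, 100.5 and 101 FPKM in J7_RIPK3 against 102, 96.2 and 97.5 FPKM in J7_CTL, was not called (log2 fold change 0.05, SE 0.033). Of the 8 peroxisomal transport and beta-oxidation members, 5 were higher, with Hsd17b4 the largest at 1.42-fold. Pex11a stood at 72.2, 67.9 and 67.9 FPKM in J7_RIPK3 against 58.0, 54.5 and 55.4 FPKM in J7_CTL, a fold of 1.24. Ehhadh stood at 1.75, 1.44 and 1.40 FPKM in J7_RIPK3 against 1.66, 1.57 and 1.58 FPKM in J7_CTL, with a log2 fold change of -0.05 (SE 0.139, adjusted p = 0.771). Acaa1a was not called either (log2 fold change 0.07, adjusted p = 0.114). Its near-identical copy Acaa1b stood at 23.7, 23.5 and 22.6 FPKM in J7_RIPK3 against 2.13, 1.88 and 2.05 FPKM in J7_CTL, a log2 fold change of 3.53, and reads may be split between the 2 copies.

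The 2 members lower in J7_RIPK3 differ in level. Abcd2 stood at 6.77, 8.02 and 7.58 FPKM in J7_RIPK3 against 12.7, 11.3 and 12.6 FPKM in J7_CTL, all J7_RIPK3 libraries lying below J7_CTL, with a log2 fold change of -0.70 (SE 0.058, adjusted p = 1.09e-09). Ppara rested on few reads, 14 in J7_RIPK3 against 87 in J7_CTL, at 0.0326, 0.0646 and 0.0591 FPKM against 0.357, 0.381 and 0.175 FPKM. Its log2 fold change was -2.499 (SE 0.437, adjusted p = 4.24e-05). Pdk4 stood at 11.2, 12.1 and 11.2 FPKM in J7_RIPK3 against 11.8, 12.5 and 12.7 FPKM in J7_CTL and was not called (log2 fold change -0.09, adjusted p = 0.159). Acot2 had 31.1, 32.3 and 28.2 FPKM in J7_RIPK3 against 27.9, 27.8 and 27.3 FPKM in J7_CTL, a fold of 1.10, and Acot1, with 14 reads in J7_RIPK3 and 4 reads in J7_CTL, did not pass the filter on low counts in this comparison.

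**Figure D4:**
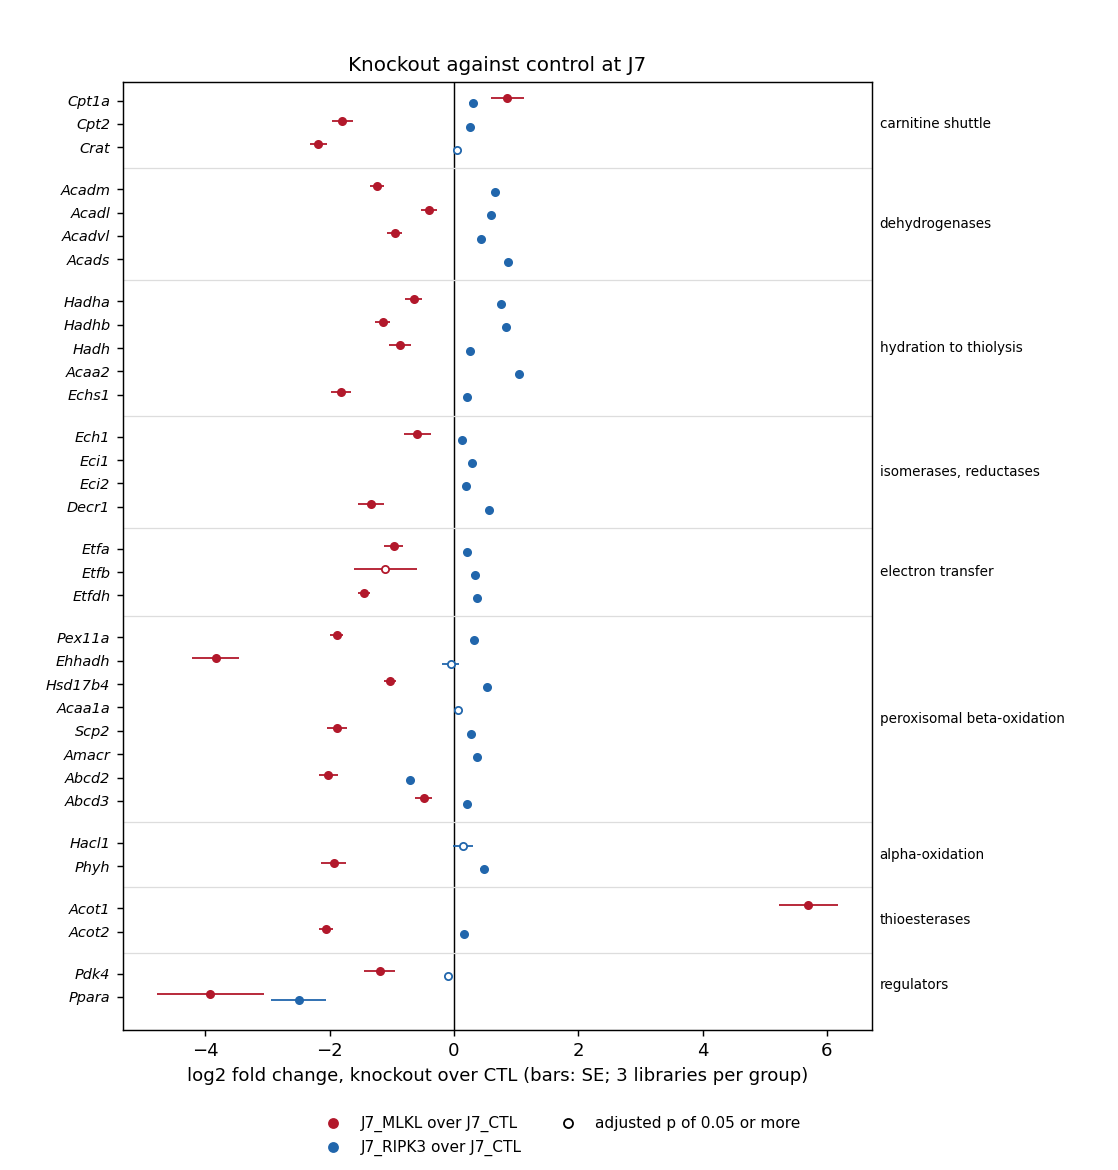
Log2 fold change of each member at J7, knockout over CTL, for MLKL-/- and RIPK3-/- cells (points), with bars for 1 SE and 3 libraries per group. RIPK3 points lie right of 0 except for Ppara, Abcd2, Pdk4 and Ehhadh, and MLKL points lie left of 0 except for Acot1 and Cpt1a.

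Differentiated MLKL-/- cells had less transcript of most members with counts there than differentiated control cells. Of 26 members tested, 23 were lower in J7_MLKL, 2 were higher (Acot1 and Cpt1a) and Etfb was not called, against 46.4% called lower and 48.5% higher among the 7263 genes tested. All 26 were listed by the authors as differing in this same comparison, so only direction and size are read here. Acads, Acaa2, Eci1, Eci2, Acaa1a, Hacl1 and Amacr had no counts in J7_MLKL, and the values below leave them out. The members' median log2 fold change was -1.22 against 0.17 over all genes tested. Groups did not overlap for 25 of the 26 members, against 94.9% of all genes tested. By more than 1 on the log2 scale 16 members were lower and 1 higher, against 24.1% and 35.6% of all genes tested. Summed FPKM over these 26 members was 510.4, 529 and 682 in J7_MLKL, 1790, 1757 and 1664 in J7_RIPK3 and 1387, 1344 and 1379 in J7_CTL. The 12 adipocyte markers summed to 1060 to 2451 FPKM in J7_MLKL against 7499 to 7883 FPKM in J7_CTL, with 11 called lower. The 7 fibroblast or preadipocyte markers with counts in J7_MLKL summed to 2912 to 3153 FPKM there, against 1207 to 1211 FPKM for all 9 in J7_CTL, and all 7 were called higher. The part of these marker changes in the members' values was not tested.

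The largest decreases in J7_MLKL included peroxisomal members and the carnitine shuttle enzymes Crat and Cpt2, while Cpt1a of the shuttle was called higher. Ehhadh stood at 0.0384, 0.122 and 0.1504 FPKM in J7_MLKL against 1.66, 1.57 and 1.58 FPKM in J7_CTL, or 23 reads against 366 reads, a log2 fold change of -3.84 (SE 0.382, adjusted p = 0.000161). Crat stood at 18.2, 18.7 and 23.7 FPKM in J7_MLKL against 102, 96.2 and 97.5 FPKM in J7_CTL, with a log2 fold change of -2.18 (SE 0.136, adjusted p = 2.70e-05). Cpt2 stood at 20.8, 22.2 and 31.2 FPKM in J7_MLKL against 92.7, 90.3 and 94.2 FPKM in J7_CTL. For all 3 genes every J7_MLKL library lay below every J7_CTL library. Abcd2 stood at 2.76, 3.34 and 2.35 FPKM in J7_MLKL against 12.7, 11.3 and 12.6 FPKM in J7_CTL, a log2 fold change of -2.02. Phyh fell to 2.12, 2.85 and 3.60 FPKM in J7_MLKL, against 11.5, 11.9 and 11.96 FPKM in J7_CTL, a log2 fold change of -1.94. No J7_MLKL library of either gene reached the J7_CTL level. Pex11a measured 12.4, 14.6 and 15.2 FPKM in J7_MLKL against 58.0, 54.5 and 55.4 FPKM in J7_CTL, a fold of 0.251. Scp2 fell to a fold of 0.255 and the hydratase Echs1 to 0.267.

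The mitochondrial dehydrogenases and the trifunctional protein fell less. Acadm stood at 41.5, 46.3 and 51.2 FPKM in J7_MLKL against 120.2, 116 and 117 FPKM in J7_CTL, a fold of 0.394. Hadha stood at 23.8, 23.3 and 31.2 FPKM in J7_MLKL against 44.1, 42.7 and 45.03 FPKM in J7_CTL, and Hadhb at 10.6, 11.2 and 13.7 FPKM against 28.4, 27.8 and 28.5 FPKM, so their ratio was 2.20 ± 0.108 in J7_MLKL and 1.56 ± 0.0237 in J7_CTL (SD, n = 3 each). Acadl fell least, to 60.8, 62.3 and 79.0 FPKM in J7_MLKL against 95.9, 92.5 and 97.9 FPKM in J7_CTL (log2 fold change -0.40, adjusted p = 0.0210), and this call was lost without any 1 of 4 libraries. Ech1, with a log2 fold change of -0.59, had adjusted p = 0.0345 and lost its call without any 1 of 5 libraries, up to 0.108.

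Library 3 of J7_MLKL weighed on several members. Etfb stood at 7.37, 7.36 and 25.9 FPKM in J7_MLKL against 33.2, 29.4 and 31.6 FPKM in J7_CTL, with a log2 fold change of -1.10 (adjusted p = 0.0691) that became -2.02 (adjusted p = 2.85e-14) without that library. Cpt1a stood at 21.6, 19.7 and 10.1 FPKM in J7_MLKL against 9.75, 10.3 and 10.4 FPKM in J7_CTL, so that libraries 1 and 2 lay above all J7_CTL libraries and library 3 among them. Its log2 fold change was 0.86 (SE 0.269, adjusted p = 0.0191), and 1.10 (adjusted p = 3.78e-13) without library 3. The Cpt1a call was lost, with adjusted p of up to 0.0653, without any 1 of the 5 other libraries compared. The ratio of Cpt1a to Cpt2 FPKM was 1.04, 0.888 and 0.323 in J7_MLKL against 0.105, 0.114 and 0.11 in J7_CTL. Adipocyte markers in the same 3 J7_MLKL libraries summed to 1060, 1259 and 2451 FPKM.

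The thioesterases again moved apart in J7_MLKL. Acot1 stood at 0.739, 0.658 and 0.753 FPKM in J7_MLKL against 0.0212, 0 and 0.0190 FPKM in J7_CTL, or 209 reads against 4 reads, with a log2 fold change of 5.70 (SE 0.475, adjusted p = 7.89e-05). Acot2 stood at 7.002, 5.98 and 5.63 FPKM in J7_MLKL against 27.9, 27.8 and 27.3 FPKM in J7_CTL, a log2 fold change of -2.05 (SE 0.112, adjusted p = 1.86e-05). The ratio of Acot2 to Acot1 FPKM was 8.68 ± 1.05 in J7_MLKL and 620 ± 124 in J7_RIPK3 (SD, n = 3 each). In J7_RIPK3 the ratio rests on 4, 4 and 6 Acot1 reads, so its size is uncertain. Of the regulators, Pdk4 stood at 6.46, 5.497 and 3.11 FPKM in J7_MLKL against 11.8, 12.5 and 12.7 FPKM in J7_CTL, with a log2 fold change of -1.19. Ppara had 5 reads in J7_MLKL, all in library 1, against 87 reads in J7_CTL.

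Both knockouts were set against the same J7_CTL libraries, and of the 25 members tested in both, 18 were lower in J7_MLKL and higher in J7_RIPK3. All 25 had been listed by the authors as differing between J7_MLKL and J7_CTL, and members without counts in J7_MLKL are left out. Ppara and Abcd2 were lower in both and Cpt1a was higher in both. Ppara rested on 5, 0 and 0 reads in J7_MLKL and 3, 5 and 6 reads in J7_RIPK3. The Cpt1a call in J7_MLKL was lost without any library other than J7_MLKL library 3, with adjusted p of up to 0.0653. Set directly against each other, 23 of 25 members were lower in J7_MLKL than in J7_RIPK3, Acot1 was higher and Cpt1a was not called, against 42% called lower and 44.8% higher among 6591 genes tested. Leaving out 1 library gave 21 to 23 members lower. Etfb and Ech1 lost their calls without any library other than J7_MLKL library 3, with adjusted p of up to 0.104 and 0.106. The members' median log2 fold change was -1.47 against -0.03 over all genes tested, and 24 of 25 had groups that did not overlap, against 91% of all genes tested. By more than 1 on the log2 scale 20 were lower and 1 higher, against 24.7% and 34.8% of all genes tested. Pex11a stood at 12.4, 14.6 and 15.2 FPKM in J7_MLKL against 72.2, 67.9 and 67.9 FPKM in J7_RIPK3, a log2 fold change of -2.13. Phyh, at 2.12, 2.85 and 3.60 FPKM in J7_MLKL against 16.9, 16.5 and 15.4 FPKM in J7_RIPK3, had a log2 fold change of -2.33. Scp2, at 35.5, 39.7 and 51.5 FPKM in J7_MLKL against 199.9, 206 and 195 FPKM in J7_RIPK3, had one of -2.07. In these 3 genes the highest J7_MLKL library was below the lowest J7_RIPK3 library. Crat stood at 18.2, 18.7 and 23.7 FPKM in J7_MLKL against 102, 100.5 and 101 FPKM in J7_RIPK3, a log2 fold change of -2.15. Acot2 had 7.002, 5.98 and 5.63 FPKM in J7_MLKL against 31.1, 32.3 and 28.2 FPKM in J7_RIPK3, one of -2.13. Acot1 was the exception, with 209 reads in J7_MLKL against 14 reads in J7_RIPK3 (log2 fold change 3.96, SE 0.257, adjusted p = 2.24e-05). Without J7_MLKL library 3, Cpt1a was called higher (log2 fold change 0.89, adjusted p = 2.93e-14), against 0.63 (adjusted p = 0.0557) with it.

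In untreated cells the RIPK3 knockout moved the members in both directions and by little. Of 31 tested, 12 were higher in J0_RIPK3, 6 lower and 13 not called, against 28.3% called higher and 27.4% lower among 11044 genes tested, with median log2 fold changes of 0.04 for the members and -0.01 for all genes tested. Groups did not overlap for 18 of the 31 members, against 60.9% of all genes tested. The share without overlap is near that of all genes, and nothing is read from the counts of calls. Acot1 alone passed a log2 fold change of 1, against 2.9% of all genes higher and 2.95% lower. Acot1 stood apart in size, at 0.814, 1.12 and 0.795 FPKM in J0_RIPK3 against 0.286, 0.429 and 0.330 FPKM in J0_CTL, a log2 fold change of 1.35 (SE 0.204, adjusted p = 6.17e-06). Abcd2 stood at 1.06, 1.16 and 1.12 FPKM in J0_RIPK3 against 0.628, 0.531 and 0.584 FPKM in J0_CTL, a log2 fold change of 0.91 (SE 0.125, adjusted p = 1.70e-06). In both genes every J0_RIPK3 library lay above every J0_CTL library. Phyh measured 8.05, 9.05 and 9.14 FPKM in J0_RIPK3 against 7.14, 5.54 and 6.63 FPKM in J0_CTL, a log2 fold change of 0.42. Hsd17b4 stood at 27.2, 27.1 and 26.6 FPKM in J0_RIPK3 against 21.2, 21.1 and 21.6 FPKM in J0_CTL, one of 0.32. Acaa2 and Cpt1a were the next highest, with log2 fold changes of 0.26 and 0.24. Pdk4, at 4.71, 4.10 and 4.39 FPKM in J0_RIPK3 against 5.90, 5.95 and 6.16 FPKM in J0_CTL, had the lowest log2 fold change, -0.47. Acot2 followed with -0.42, at 7.33, 7.09 and 6.89 FPKM in J0_RIPK3 against 9.27, 9.51 and 9.26 FPKM in J0_CTL. Acaa1a, Scp2 and Hadh were also lower, by log2 fold changes of -0.20, -0.17 and -0.14, without overlap between the groups. Decr1, with -0.12, overlapped between the groups and lost its call without any 1 of 3 libraries (adjusted p of up to 0.133).

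In untreated MLKL-/- cells 10 members were tested, of which 5 were higher, 3 lower and 2 not called, against 40.4% called higher and 43.2% lower among 3824 genes tested. The members' median log2 fold change was 0.08 against -0.04 over all genes tested, and 9 of the 10 had groups that did not overlap, against 86% of all genes tested. Acot1 and Abcd2 were higher by more than 1 on the log2 scale and 0 members lower, against 11.9% and 14.2% of all genes tested. Acot1 stood at 2.06, 2.39 and 2.02 FPKM in J0_MLKL against 0.286, 0.429 and 0.330 FPKM in J0_CTL, a 6.28-fold difference (log2 fold change 2.66, SE 0.176, adjusted p = 1.18e-05). Abcd2 stood at 1.57, 1.33 and 1.14 FPKM in J0_MLKL against 0.628, 0.531 and 0.584 FPKM in J0_CTL, a log2 fold change of 1.24. Every library of both genes lay above J0_CTL, as in J0_RIPK3. Acaa1a, at 32.6, 44.8 and 31.5 FPKM in J0_MLKL against 26.5, 26.6 and 25.7 FPKM in J0_CTL, had a log2 fold change of 0.49, without overlap. Acadm had 29.2, 33.5 and 28.9 FPKM in J0_MLKL against 22.9, 23.3 and 23.3 FPKM in J0_CTL, a log2 fold change of 0.43. Acot2 was higher by only 0.23 (adjusted p = 0.0206), a call lost without any 1 of 3 libraries. Phyh measured 3.78, 5.08 and 3.39 FPKM in J0_MLKL against 7.14, 5.54 and 6.63 FPKM in J0_CTL, a log2 fold change of -0.62. Scp2 stood at 20.7, 25.6 and 21.6 FPKM in J0_MLKL against 33.3, 31.7 and 33.3 FPKM in J0_CTL, one of -0.51. Cpt2 was lower by a log2 fold change of -0.50, at 11.1, 14.7 and 10.2 FPKM in J0_MLKL against 17.5, 16.5 and 17.98 FPKM in J0_CTL. All 3 were lower in every J0_MLKL library. Without J0_MLKL library 2 the number lower was 5.

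The change with differentiation was then compared between lines, as the J7 minus J0 change of a knockout minus that of CTL. For RIPK3-/- cells 23 of 32 members had a larger change and Abcd2 a smaller one, against 18.4% called higher and 20.6% lower among 11027 genes tested, with median differences of 0.33 for the members and 0.01 for all genes tested on the log2 scale. Differences over 1 were 0 higher and 1 lower, against 2.02% and 3.4% of all genes tested. The largest differences were those of Acaa2 at 0.79 (SE 0.058, adjusted p = 8.10e-12), Decr1 at 0.68, Acads at 0.67 and Hadhb at 0.61. Abcd2 differed by -1.61 (SE 0.129, adjusted p = 4.73e-11), having started higher in J0_RIPK3 and ended lower in J7_RIPK3 than in the CTL line. Cpt1a, which fell in both lines, differed by 0.07 (SE 0.066, adjusted p = 0.474). For MLKL-/- cells 8 of 11 members had a lower change and Acot1 a higher one, against 26.3% called lower and 39% higher among 3033 genes tested. Median differences were -1.77 for the members and 0.31 for all genes tested. The other 24 members were not tested. The 11 had counts only through being listed for an MLKL group, so these counts are a description. Acot2 fell in MLKL-/- cells and rose in CTL cells, so its change was lower by a change of sign. All 9 called differences were over 1 in size, 8 lower and 1 higher, against 16.6% and 29% of all genes tested. Abcd2 differed by -3.36 (SE 0.215, adjusted p = 1.15e-07), Acot2 by -2.39 (SE 0.119, adjusted p = 1.87e-08), Crat by -2.23 and Acadm by -1.78. Acot1 differed by 2.95 (SE 0.512, adjusted p = 0.000348). With DESeq2 size factors in place of TMM factors the median over all genes tested moved from 0.31 to -0.01 in this comparison and the calls over all genes from 1184 higher and 797 lower to 963 higher and 1012 lower, with 8 members lower and 1 higher under both.

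Other genes of the pathway, taken from written lists, were counted in the same way, with calls from the same test and background shares. In J7_CTL against J0_CTL, 14 of 14 tested peroxins, which build and divide peroxisomes, were higher, as were 12 of 12 other mitochondrial oxidation genes, 10 of 12 other peroxisomal oxidation genes, 8 of 10 genes of acyl-CoA activation and carnitine transport and 16 of 18 regulators and their targets. Of all genes tested there, 48.2% were called higher and 47.6% lower. Acsl1, which activates long-chain fatty acids, stood at 332, 311 and 328 FPKM in J7_CTL against 1.64, 1.62 and 1.40 FPKM in J0_CTL, a log2 fold change of 7.65. Cpt1c, the brain-type carnitine palmitoyltransferase, fell like Cpt1a, to 1.17, 1.28 and 1.10 FPKM in J7_CTL against 12.5, 12.3 and 12.5 FPKM in J0_CTL.

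In J7_MLKL against J7_CTL, 8 of 8 tested peroxins, 8 of 10 peroxisomal oxidation genes, 7 of 9 mitochondrial oxidation genes, 5 of 7 genes of activation and carnitine transport and 14 of 15 regulators and their targets were lower. Of all genes tested there, 46.4% were called lower and 48.5% higher. The lists hold 15, 19, 17, 11 and 22 genes in that order. Only genes that the authors called in an MLKL comparison have counts in J7_MLKL, so the rest of each list is not covered. Acsl1 stood at 22.0, 29.2 and 20.8 FPKM in J7_MLKL against 332, 311 and 328 FPKM in J7_CTL. Genes called higher included Cpt1c (log2 fold change 2.28), the peroxisomal oxidase Pipox (log2 fold change 2.49) and the coactivator Ppargc1a (log2 fold change 1.93). In J7_RIPK3 against J7_CTL, 10 of 13 mitochondrial oxidation genes, 8 of 12 peroxisomal oxidation genes, 7 of 10 genes of activation and carnitine transport, 6 of 14 peroxins and 10 of 19 regulators and their targets were higher. Of all genes tested there, 29.6% were called higher and 29.5% lower. The carnitine carrier Slc25a20 stood at 10.4, 10.3 and 10.1 FPKM in J7_RIPK3 against 5.99, 5.67 and 5.81 FPKM in J7_CTL, and Acox2, an oxidase of branched chains, at 12.5, 11.7 and 10.4 FPKM against 4.39, 4.84 and 4.46 FPKM. Among regulators and their targets the coactivator Ppargc1a stood at 1.28, 1.14 and 1.54 FPKM in J7_RIPK3 against 0.515, 0.456 and 0.413 FPKM in J7_CTL. The lipid droplet protein gene Cidea stood at 60.7, 57.4 and 49.8 FPKM in J7_RIPK3 against 1.82, 2.09 and 2.44 FPKM in J7_CTL. Pparg, the master regulator of adipocyte differentiation, stood at 131, 125 and 120 FPKM in J7_RIPK3 and 19.4, 22.8 and 30.3 FPKM in J7_MLKL, against 169, 165 and 165 FPKM in J7_CTL.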

How the data were processed

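Total RNA from 18 libraries, 3 in each of 6 groups named after the sample titles, was sequenced on standard Illumina protocols, per the labels' protocols. The submitters' processing notes list HISAT2 and featureCounts 1.5.0-p3 with the mm10 build, beside DESeq2 and FastQC 0.11.9, and strandedness is not given in the sources used here. The authors deposited 7 comparison tables used here, each limited to genes with an adjusted p under 0.05, and 14 enrichment tables that were not used. Each comparison table holds raw read counts per gene, DESeq2-normalized counts (a signal that the authors scaled by size factors), FPKM, and the authors' deposited log2 fold changes and p-values, per the file headers. The authors' normalized counts served only to recover their size factors, and their log2 fold changes and p-values were not used as results.

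Counts were joined over the 7 tables; 88950 library-by-gene counts stood in more than 1 table and 0 of them differed. Library totals were recovered from counts, FPKM and gene length. Raw counts were tested with edgeR 4.0.16 in R 4.3.3 (TMM factors, filterByExpr, quasi-likelihood F-test), each fit holding the groups compared, with Benjamini-Hochberg adjustment over all genes tested, and a call is an adjusted p under 0.05. There were 8 comparisons of 2 groups and 2 differences of change. The fit was tested on simulated counts with few genes changed and the same dispersion for all genes. That setting does not cover comparisons where most genes differ or the libraries of a group spread widely. Standard errors are the absolute log2 fold change over the square root of F, folds are ratios of pooled reads over pooled library totals, intervals are exact, and 3 reads were set as the floor. Members, gene lists and the rule for named genes (the 6 members of largest called change in each direction, a fixed set, and members that differ from their role group) were chosen with earlier results of these data known. Alternatives were other scalings, DESeq2 1.42.0, other filters, the replicate number as a block, 1 fit over all groups, a fold threshold, and leaving out each library. The same-numbered libraries were not treated as pairs. Single values of some other pathway genes are not reported here.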

Additional observations from a re-analysis of the deposited data

Results flagged for a closer look

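The following members were flagged because their change with differentiation differed between a knockout line and the CTL line, by the test of the difference itself. The gap test for single values far from their group was not run, since it needs at least 4 libraries in a group. Values are log2 differences, the J7 minus J0 change of the knockout minus that of CTL, from edgeR's quasi-likelihood test with Benjamini-Hochberg adjustment.

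In MLKL-/- cells the carnitine shuttle enzymes Crat and Cpt2 differed by -2.23 and -1.40, and the medium-chain dehydrogenase Acadm by -1.78. The peroxisomal members Abcd2, Pex11a and Scp2 differed by -3.36, -1.77 and -1.48, and the alpha-oxidation hydroxylase Phyh by -1.42. The thioesterases differed in opposite directions, Acot2 by -2.39 and Acot1 by 2.95. Reads of this pair may be split between the near-identical copies.

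In RIPK3-/- cells the dehydrogenases Acads, Acadl, Acadm and Acadvl differed by 0.67, 0.55, 0.54 and 0.42. The thiolase Acaa2 differed by 0.79, the trifunctional subunits Hadhb and Hadha by 0.61 and 0.55, Hadh by 0.40 and Echs1 by 0.205. The accessory enzymes Decr1, Eci1 and Eci2 differed by 0.68, 0.31 and 0.21, the electron carriers Etfb and Etfdh by 0.35 and 0.25, and Cpt2 by 0.32.

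Among peroxisomal members of RIPK3-/- cells, Scp2, Pex11a and Acaa1a differed by 0.45, 0.36 and 0.27, Amacr, Hsd17b4 and Abcd3 by 0.23, 0.205 and 0.17, and Abcd2 by -1.61. Acot2 differed by 0.58 and the kinase Pdk4 by 0.38. The calls of Amacr and Etfb were lost in part of the alternatives, with adjusted p of up to 0.0717 and 0.0944 when 1 library was left out. With the authors' size factors Amacr had adjusted p = 0.101, Etfb 0.0551 and Abcd3 0.106. Abcd3 also lost its call with library totals (adjusted p = 0.0665), as did Cpt2 in the fit over all 6 groups (adjusted p = 0.234).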

How the results depend on the processing

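Of 3559 values of single members under alternatives, 3434 kept their direction and side of the threshold, 58 lost a call, 30 gained one and 37 changed sign, 0 of these among the 208 called results. The cause of the changes below was not tested. Leaving out 1 library gave ranges of 3 to 5 members lower in J0_MLKL against J0_CTL, 1 to 2 higher in J7_MLKL against J7_CTL and 1 to 2 higher in J7_MLKL against J7_RIPK3. Leaving out J7_MLKL library 3 and J0_MLKL library 2 together, chosen after seeing the data, gave 5 and, in the third comparison, 2.

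A mean of at least 50 counts left 1 member lower in J7_CTL against J0_CTL, 1 higher in J7_MLKL against J7_CTL, 1 lower in J7_RIPK3 against J7_CTL and 0 higher in J7_MLKL against J7_RIPK3, since fewer members were tested. Without a filter 5 were lower in J0_MLKL, and DESeq2's Wald test gave 2 higher in J7_MLKL against J7_RIPK3. With an absolute log2 fold change over 1 also required, the counts higher and lower were 3 and 1 in J7_MLKL against J0_MLKL, 2 and 0 in J0_MLKL against J0_CTL, 1 and 0 in J0_RIPK3 against J0_CTL and 1 and 1 in J7_RIPK3 against J7_CTL, with 1 higher in J7_MLKL against J7_CTL and 0 higher in the RIPK3 difference of change. One fit over all 6 groups holds only the 10 members with counts everywhere: 9 higher and 1 lower with differentiation in RIPK3-/- and in CTL cells, 3 higher in J0_MLKL, 2 higher and 1 lower in J0_RIPK3, 1 higher and 9 lower in J7_MLKL against J7_CTL, 5 higher and 1 lower in J7_RIPK3 against J7_CTL, 9 lower in J7_MLKL against J7_RIPK3 and 4 higher in the RIPK3 difference of change.

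Sign changes were confined to members not called. In J0_RIPK3 against J0_CTL, library totals gave 0.016 for Etfb, 0.001 for Eci1 and 0.013 for Eci2, and the authors' size factors 0.011 for Etfb and 0.008 for Eci2. Leaving out 1 library there gave -0.099 to 0.061 for Etfb, -0.065 to 0.021 for Crat, -0.005 to 0.043 for Acadvl, -0.066 to 0.021 for Eci1, -0.03 to 0.014 for Eci2, -0.01 to 0.053 for Echs1, -0.001 to 0.072 for Abcd3 and -0.092 to 0.008 for Pex11a, and -0.153 to 0.004 for Ehhadh in J7_RIPK3 against J7_CTL. In the MLKL difference of change Ppara was -0.26 with DESeq2 size factors, -0.05 in DESeq2's test and -3.941 to 1.955 without 1 library. In that of RIPK3, Ech1 was -0.019 with library totals, -0.035 with the authors' size factors and -0.04 to 0.046 without 1 library, with ranges of -0.028 to 0.162 for Phyh, -3.121 to 1.738 for Ehhadh and -0.05 to 0.877 for Acot1.

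The replicate number as a block did not pair the samples: same-numbered deviations correlated at 0.456, -0.694 and -0.548 between J7_MLKL and J0_MLKL and at -0.124 to 0.105 elsewhere. With the replicate block the members higher in J0_MLKL numbered 4 against 5 without it, those higher in J0_RIPK3 13 against 12 and those lower in J7_MLKL against J7_CTL 24 against 23, and the other counts were equal. The block gave 0.009 for Etfb in J0_RIPK3 and -0.025 for Ppara in the MLKL difference of change.

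Scaling by library totals moved the median of all genes in J7_MLKL against J7_CTL to 0.07, against 0.17 with TMM factors, and in J7_MLKL against J7_RIPK3 to -0.20, against -0.03. Depth limits Acot1, Ehhadh, Ppara and Hacl1, whose reads were few in at least 1 group.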

Other observations

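Within libraries, the ratios of partner transcripts in FPKM added values that belong to no comparison above. Etfa to Etfb, the 2 subunits of the electron transfer flavoprotein, stood at 9.81, 10.3 and 3.94 in J7_MLKL, at 4.78, 5.63 and 5.09 in J7_RIPK3 and at 5.31, 5.88 and 5.63 in J7_CTL. The third J7_MLKL library lay below all others of the 3 groups, and the first and second lay above them. At J0 the ratio was 8.40 ± 0.287 in J0_RIPK3 and 7.79 ± 0.975 in J0_CTL (SD, n = 3 each). Hadha to Hadhb stood at 2.91 ± 0.2 in J0_RIPK3 and 2.94 ± 0.0677 in J0_CTL (SD, n = 3 each), with overlapping libraries.

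Acot2 to Acot1 ran from 4.68 to 5.21 in J0_MLKL, from 6.31 to 9.01 in J0_RIPK3 and from 22.2 to 32.4 in J0_CTL. Both knockouts lay below all 3 J0_CTL libraries. The ratio has no value in J7_CTL, where 1 library had no Acot1 read.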
